A study of Mus musculus with 10 samples.

Results

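The conjugation enzymes of the liver were followed as 62 genes of 19271 in the deposited table, chosen by symbol alone. They comprised the UDP-glycosyltransferases of the Ugt1, Ugt2 and Ugt3 groups (UGT, 20 genes) and the sulfotransferases (SULT, 20 genes). The others were the glutathione S-transferases of the Gsta, Gstk, Gstm, Gsto, Gstp, Gstt and Gstz classes (GST, 22 genes). Transcripts were summed per gene. The genes were measured by sequencing of poly(A) RNA from the liver of 10 mice aged 2 months, of strain C57BL6/N. The mutation, S400D, replaces a serine of the mitochondrial protease HtrA2/Omi by aspartate. The groups were 1 homozygous (S400D/S400D) female, 3 homozygous males, 3 heterozygous (S400D/WT) males and 3 wild-type (WT/WT) males. The labels give neither litter nor collection time, so the p-values here cover the spread among these animals alone, and for the female, sex and individual cannot be told apart.

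Conjugation is the step of drug and hormone clearance in which a molecule receives a water-soluble group. UGT enzymes of the Ugt1 and Ugt2 groups, in the endoplasmic reticulum, transfer glucuronic acid from UDP-glucuronic acid. Cytosolic SULT enzymes transfer sulfate from the donor PAPS, and GST enzymes join glutathione to reactive compounds. In rodents several of these genes are known to differ between male and female liver, and several respond to the nuclear receptor CAR or to the oxidative stress factor NRF2.

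The libraries held 16240441 to 17264289 expected counts, of which 0.874% to 1.431% belonged to the 62 genes. Htra2 stood at 13.7 CPM (reads scaled to the library total and its TMM factor) in the female, 14.9 ± 0.515 CPM in homozygous, 15.9 ± 0.678 CPM in heterozygous and 14.0 ± 2.68 CPM in WT/WT males (SD, n = 3 each). Since S400D changes the protein, this level does not check the genotype. The 8 hepatocyte markers summed to 111669 CPM in the female, 121215 to 142719 CPM in homozygous, 83522 to 106477 CPM in heterozygous and 104981 to 120708 CPM in wild-type males. Fewer cells of a type and less RNA per cell cannot be told apart in such bulk samples. The 8 stellate cell markers summed to 385 CPM in the female, 344 to 529 CPM in homozygous, 302 to 447 CPM in heterozygous and 138 to 358 CPM in wild-type males. The 10 Kupffer cell markers summed to 492 CPM in the female, 474 to 500 CPM in homozygous, 224 to 508 CPM in heterozygous and 172 to 542 CPM in wild-type males. The 8 sinusoidal endothelial markers summed to 191 CPM in the female, 245 to 250 CPM in homozygous, 160 to 231 CPM in heterozygous and 107 to 258 CPM in wild-type males. Fold changes in homozygous against wild-type males were positive for 8 of 8 endothelial, 10 of 10 Kupffer, 7 of 8 stellate and 5 of 8 hepatocyte markers. The 5 erythroid markers summed to 303 CPM in the female, 261 to 292 CPM in homozygous, 219 to 1717 CPM in heterozygous and 162 to 1956 CPM in wild-type males, and 0 of 5 had positive fold changes in that comparison. None of these markers was at 0 in all libraries. Of 14 listed circadian clock genes, 4 had positive fold changes in homozygous against wild-type males. At an unadjusted p under 0.05 by edgeR, 4 stood higher (28.6%, against 6.82% of all genes). On the lower side there were 7 (50%, against 8.08%), and 0 were called after adjustment. Arntl, which encodes the clock activator BMAL1, had 1.59 CPM in the female, 17.7, 25.9 and 37.9 CPM in homozygous males, 1.18, 31.4 and 2.57 CPM in heterozygous males and 2.6, 2.46 and 4.24 CPM in wild-type males. The part of the clock or of other cell types in the differences described here was not tested.

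Homozygous male 1 stood apart in the conjugation genes. It had the lowest CPM of the 9 males in 25 of the 43 conjugation genes with enough reads to be tested (58.1%), against 19.5% of all 12427 genes tested. Ugt1a5 stood at 5.34 CPM in that animal and at 143 and 93.3 CPM in the other homozygous males. Gstm3 had 8.3 CPM there and 113 and 81.2 CPM in the others, and Gsta3 had 679 CPM there and 1955 and 2260 CPM in the others. The same animal had the highest male value in 3 of the 43 genes (6.98%, against 19.5% of all genes), Sult1a1, Sult1d1 and Gsto1. Sult1e1, the oestrogen sulfotransferase, had 117, 1 and 15 reads in homozygous males, 0, 1 and 1 reads in heterozygous males and 0, 7 and 0 reads in wild-type males. Several medians and sums are therefore also given without this animal.

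**Figure D1:**
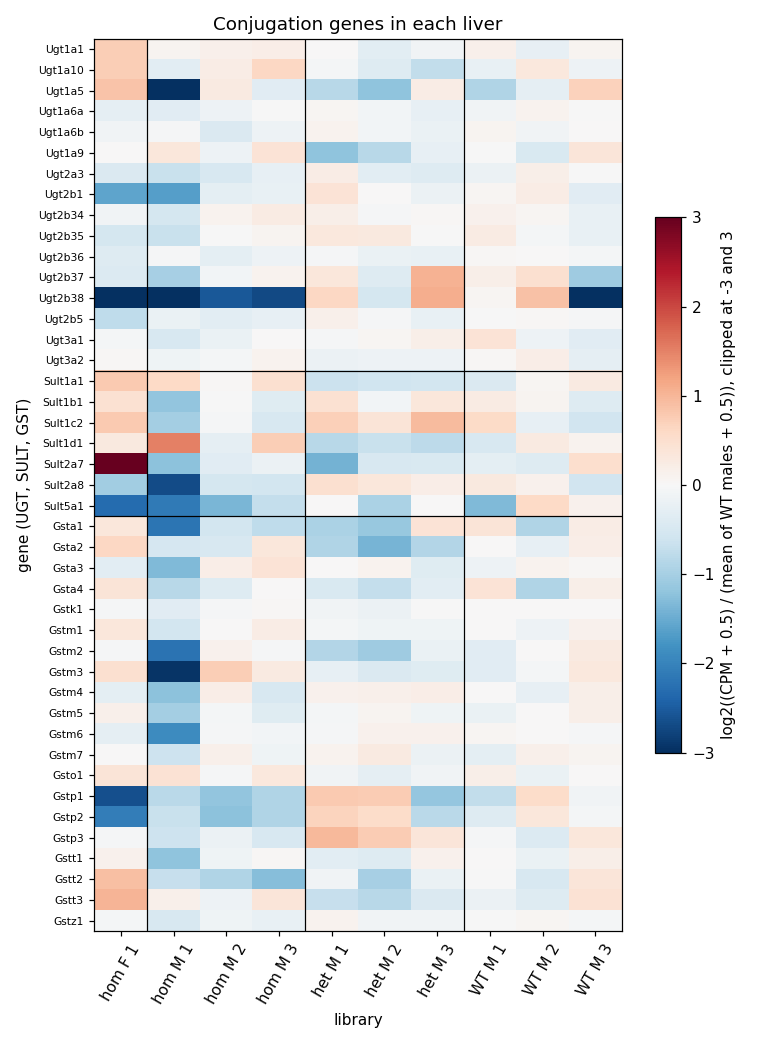
Rows are the 43 conjugation genes tested in males, grouped as UGT, SULT and GST, and columns are the 10 libraries from the homozygous female to the wild-type males. Colour gives log2 of each CPM over the mean of the wild-type males, with 0.5 CPM added to both and clipped at -3 and 3. Homozygous male 1 has the lowest male value in 25 of the 43 rows.

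The levels per transcript length spanned several orders of magnitude within each family. Of the 62 genes, 41 had a mean of at least 1 FPKM (reads scaled to transcript length and library total) in wild-type males, namely 14 UGT, 7 SULT and 20 GST genes, and 19 had at least 100 FPKM. Gstp1, the pi-class transferase, was the most abundant with 4271 ± 1627 FPKM, rank 23 among all genes. Next came Gsta3 with 1483 ± 45.7 FPKM, an alpha-class enzyme known in mice for detoxifying aflatoxin epoxide, and Gstm1 with 1217 ± 168 FPKM. Gstz1, which also serves tyrosine breakdown, had 496 ± 26.6 FPKM. The highest UGT genes were Ugt2b5 (530 ± 31.4 FPKM), Ugt2b36 (398 ± 31.4 FPKM), Ugt2b1 (243 ± 44.2 FPKM) and Ugt1a1 (208 ± 41.5 FPKM), whose enzyme conjugates bilirubin. The highest SULT genes were Sult2a8 (399 ± 127 FPKM), which in mice acts on bile acids, the phenol sulfotransferase gene Sult1a1 (290 ± 59.7 FPKM), Sult1d1 (70.4 ± 14 FPKM), which acts on catecholamines, and Sult5a1 (26.9 ± 14.3 FPKM). Errors are SD over n = 3.

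**Figure D2:**
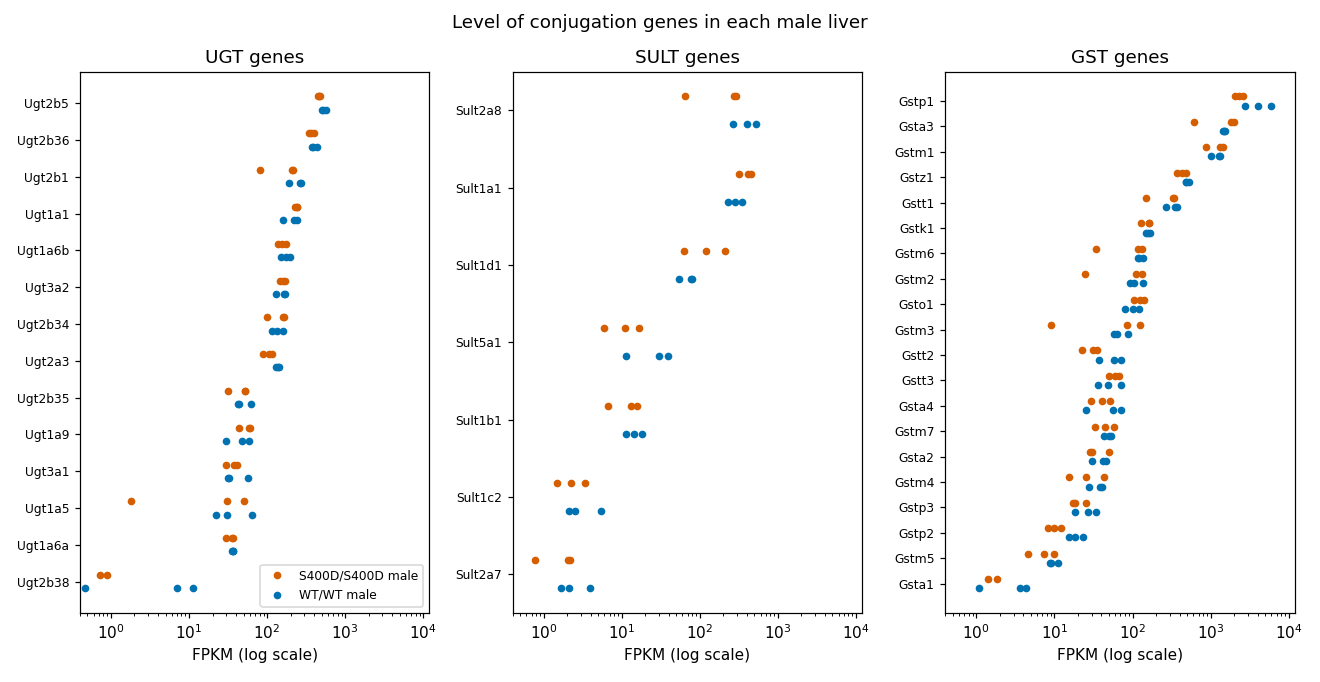
Each point is the FPKM of a gene in a single male liver on a log axis, for the 41 genes with a mean of at least 1 FPKM in wild-type males. Homozygous males are orange and wild-type males blue. Gstp1 has the highest wild-type mean (4271 FPKM), and single low orange points stand out in Ugt1a5, Gstm3 and Sult2a8.

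Animals of a group differed more in these genes than in most. The median coefficient of variation of CPM over the 43 tested genes was 26.4% for homozygous males, 14.5% for heterozygous males and 21.1% for wild-type males. Over all 12427 genes it was 14.5% for homozygous males, 12.9% for heterozygous males and 12.1% for wild-type males. In wild-type FPKM, Gsta3 varied by 3.08% and Gstz1 by 5.36%, while Gstp1 varied by 38.1% and Ugt2b38 by 86.3%.

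Near-identical copies limit what single members can show. The Ugt1a genes on chromosome 1 have their own first exons and share the rest, and 58.2% of the 50-base words in the transcripts of Ugt1a1 also occur in Ugt1a2. Gstp1 shares 33.7% of its words with Gstp2, Gsta2 shares 36% with Gsta1, Sult2a2 shares 41.3% with Sult2a1, and Ugt2b38 shares 34.1% with Ugt2b5. How reads were divided within such pairs is uncertain. Of the 62 genes, 11 shared over 50% of their words with a single other gene and 19 shared 0% with any, among them Sult1d1, Sult1b1, Sult2a7, Gstp3 and Gsto1.

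Homozygous and wild-type males were compared to see the livers with S400D on both alleles. No conjugation gene passed the threshold of 0.05 on the p adjusted over all genes. Of the 43 tested genes, 35 had negative fold changes and the median log2 fold change was -0.27, while 49.3% of all genes were negative with a median of 0.004. By family the medians were -0.19 over 16 UGT, -0.54 over 7 SULT and -0.35 over 20 GST genes. Without homozygous male 1, 25 of 44 genes were negative and the median was -0.06. The 19 genes that were not tested had at most 18 reads in any male, except Sult1e1.

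The quasi-likelihood test of edgeR with Benjamini-Hochberg adjustment called 0 of the 43 genes (0% of all genes). At an unadjusted p under 0.05 there was 1 higher member (2.33%, against 6.82% of all genes) and 5 lower members (11.6%, against 8.08% of all genes). In either direction these were 14% of the members and 14.9% of all genes, so the share was near the background. DESeq2 called 2 members, Ugt2b38 and Gstt2 (2.48% of all genes), and limma-voom called 0 (0% of all genes).

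The Gstp genes of chromosome 19 include the most abundant member. Gstp1 had 1213, 935 and 1129 CPM in homozygous males, against 1258, 3105 and 1975 CPM in wild-type males. All homozygous values lay below the wild-type ones, though closely below that of wild-type male 1 (log2 fold change -0.95, SE 0.47, adjusted p = 0.377, edgeR). Gstp2 had 5.81, 3.78 and 4.91 CPM in homozygous and 7.24, 12.2 and 9.15 CPM in wild-type males, without overlap (-0.98, SE 0.38, adjusted p = 0.284). Of its words, 49.1% also occur in Gstp1. The ratio of Gstp1 to Gstp2 CPM was 209, 247 and 230 in homozygous and 174, 254 and 216 in wild-type males. Whether Gstp2 holds reads of Gstp1 was not tested. Gstp3, which shares no words with them, had 8.13, 11.2 and 8.99 CPM in homozygous and 12.3, 9.44 and 16.3 CPM in wild-type males, and the groups overlapped. Gstp1 made up 50.2%, 29.6% and 31.4% of the summed GST FPKM in homozygous males, against 37.6%, 59.7% and 46.4% in wild-type males. Without Gstp1 the GST genes summed to 2569, 4913 and 5090 FPKM in homozygous males, against 4548, 4035 and 4714 FPKM in wild-type males. Homozygous male 1 was the lowest of these and the other homozygous males the highest, so the homozygous mean was 4191 FPKM with that animal and 5002 FPKM without it, against 4432 FPKM in wild-type males.

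The start regions of these 3 neighbours are shown because Gstp1 and Gstp2 are close copies and Gstp3 is not. Each runs from 250 bases before to 50 bases after an annotated start on the minus strand of GRCm38.p6 (RefSeq), at chr19:4037863-4038162 for Gstp1, chr19:4042172-4042471 for Gstp2 and chr19:4059398-4059697 for Gstp3. The windows of Gstp1 and Gstp2 are identical at 246 of 300 aligned bases (82%), and those of Gstp1 and Gstp3 at 182 (60.7%). Capitals mark GCGTG, the core of the dioxin response element, searched on both strands.
Gstp1: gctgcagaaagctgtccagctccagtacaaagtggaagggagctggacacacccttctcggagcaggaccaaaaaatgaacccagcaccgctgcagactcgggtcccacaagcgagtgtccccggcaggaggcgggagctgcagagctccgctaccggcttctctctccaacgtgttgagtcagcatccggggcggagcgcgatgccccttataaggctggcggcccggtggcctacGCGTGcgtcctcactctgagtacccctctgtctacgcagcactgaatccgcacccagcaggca
Gstp2: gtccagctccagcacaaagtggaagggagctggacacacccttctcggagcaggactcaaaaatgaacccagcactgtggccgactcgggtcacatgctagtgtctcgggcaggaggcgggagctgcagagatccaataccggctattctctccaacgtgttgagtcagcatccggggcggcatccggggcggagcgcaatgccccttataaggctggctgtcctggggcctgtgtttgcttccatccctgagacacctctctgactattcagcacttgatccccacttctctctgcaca
Gstp3: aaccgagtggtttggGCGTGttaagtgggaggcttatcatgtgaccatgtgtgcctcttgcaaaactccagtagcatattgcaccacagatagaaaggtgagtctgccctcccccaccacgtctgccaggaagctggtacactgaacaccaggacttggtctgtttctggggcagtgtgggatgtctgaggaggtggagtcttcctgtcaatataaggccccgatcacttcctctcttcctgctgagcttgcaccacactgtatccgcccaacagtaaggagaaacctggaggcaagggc

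Start regions were found for 54 of the 62 genes, in 65 windows. The core GCGTG occurred in 10 of the 54 genes (18.5%), against 32.4% of all 32817 windows. The antioxidant response core TGACNNNGC was found in Gsta3, Gstm5 and Gstm7 (5.56%, against 12.4% of windows). The STAT5 palindrome TTCNNNGAA was found in Gsta1, Gstm6, Sult3a1 and Ugt1a6a (7.41%, against 8.29%), the D-box TTATGTAA in Ugt2b1 (1.85%, against 0.935%) and the E-box CACGTG in 0 genes (7.15% of windows). Both strands were searched, and matches of different motifs may overlap. These are matches of letters only.

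Among the UGT genes, Ugt2b38 (chromosome 5, 87409939 to 87424203) had 0.348, 1.4 and 1.2 CPM in homozygous males and 11.1, 20 and 0.798 CPM in wild-type males. All homozygous animals were low, and so was wild-type male 3 (-3.43, SE 0.99, adjusted p = 0.217). Over the alternatives the adjusted p ranged from 0.0422 to 0.552. Ugt2a3 had 164, 189 and 222 CPM in homozygous and 232, 295 and 259 CPM in wild-type males, with no overlap (-0.45, SE 0.18, adjusted p = 0.298). Ugt2b5 had 776, 717 and 751 CPM in homozygous and 888, 911 and 867 CPM in wild-type males, also with no overlap (-0.25, SE 0.12, adjusted p = 0.368). Ugt1a1 had 674, 699 and 724 CPM in homozygous and 697, 534 and 664 CPM in wild-type males, and the groups overlapped.

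Among the SULT genes, Sult1d1 had 446, 130 and 259 CPM in homozygous and 112, 189 and 168 CPM in wild-type males (0.83, SE 0.37, adjusted p = 0.335). Homozygous male 2 lay inside the wild-type range, and without homozygous male 1 the log2 fold change was 0.32. Sult5a1 had 5.46, 9.48 and 15.2 CPM in homozygous and 9.9, 38.5 and 27.6 CPM in wild-type males (-1.33, SE 0.51, adjusted p = 0.284), and the groups overlapped through wild-type male 1. Sult2a8 had 120, 531 and 529 CPM in homozygous and 948, 845 and 520 CPM in wild-type males, with a small overlap. It made up 8.6%, 41.4% and 32.8% of the summed SULT FPKM in homozygous males, against 61.8%, 48.9% and 36.2% in wild-type males. Sult1a1 and Sult1d1 together made up 88.5%, 53.9% and 62.8% in homozygous males, against 33.8%, 44.1% and 57.4% in wild-type males. The sum of all SULT genes was 771 ± 67.4 FPKM in homozygous and 808 ± 54.2 FPKM in wild-type males (SD, n = 3 each), and 779 FPKM in homozygous males without male 1.

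Among the other GST genes, the theta-class gene Gstt2 had 39, 33.4 and 25.8 CPM in homozygous and 62.8, 45.1 and 81.4 CPM in wild-type males. The groups did not overlap (-0.95, SE 0.28, adjusted p = 0.218), and over the alternatives the adjusted p ranged from 0.0467 to 0.469. Gstz1 had 489, 626 and 587 CPM in homozygous and 678, 712 and 653 CPM in wild-type males, also without overlap (-0.27, SE 0.13, adjusted p = 0.38). In all, 6 members had lower values without overlap (14%, against 10.9% of all genes) and 0 had higher ones (0%, against 9.74%). Gsta3 had 679, 1955 and 2260 CPM in homozygous and 1539, 1830 and 1739 CPM in wild-type males. Its homozygous mean was 1632 CPM with homozygous male 1 and 2108 CPM without it, against 1703 CPM in wild-type males, so the direction rests on that animal.

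**Figure D3:**
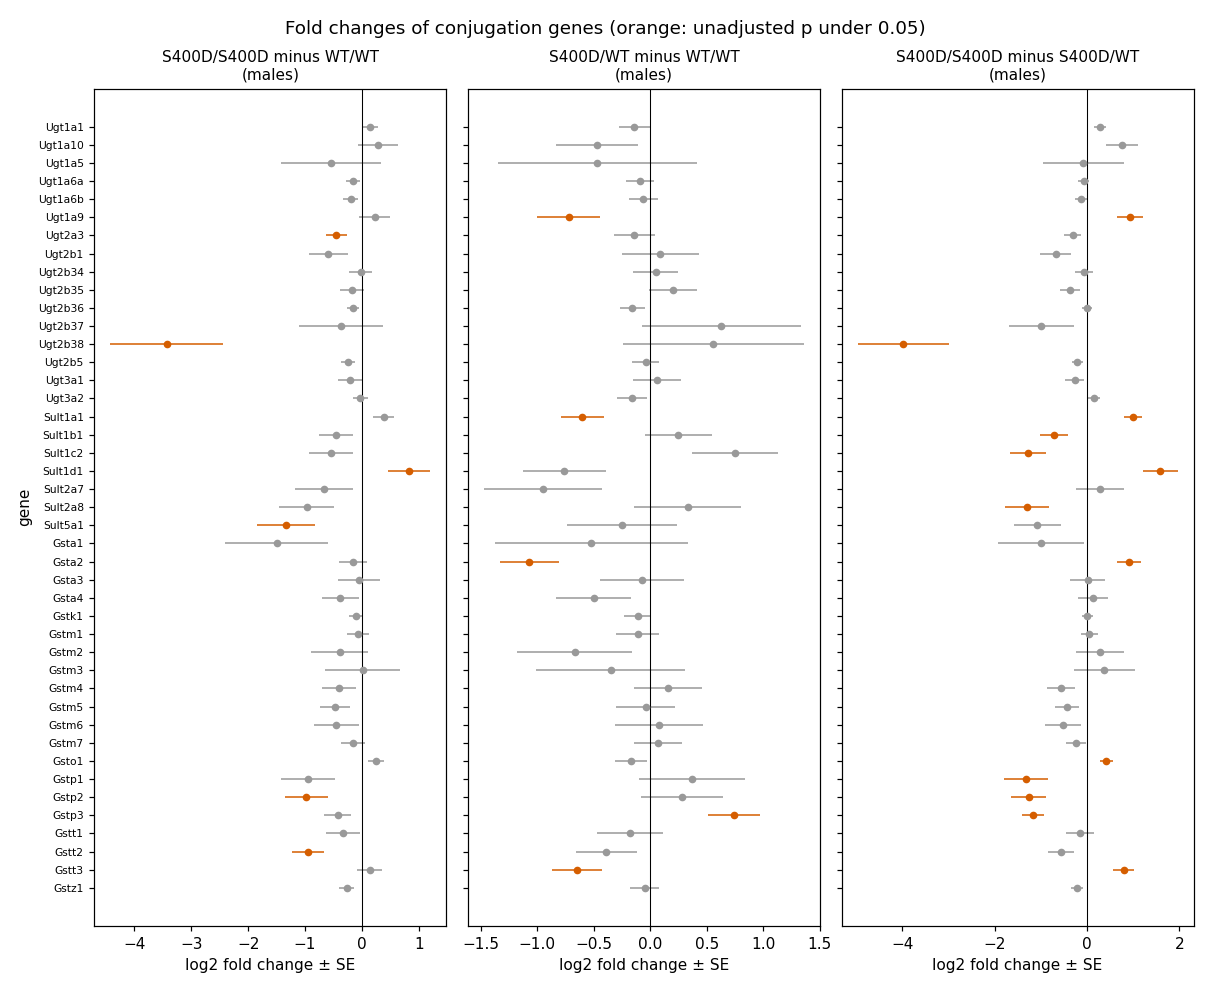
Points are log2 fold changes of the 43 tested genes with the SE of the edgeR fit, for homozygous against wild-type, heterozygous against wild-type and homozygous against heterozygous males, each panel on its own axis. Orange points have an unadjusted p under 0.05, of which there are 6, 5 and 13. The panels share animals.

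Heterozygous and wild-type males were compared to see the livers with a single S400D allele. Again edgeR called 0 of 43 members and limma-voom 0 (0% of all genes each), and DESeq2 called 0 members (0.0563% of all genes). At an unadjusted p under 0.05 there was 1 higher member (2.33%, against 1.67% of all genes) and 4 lower members (9.3%, against 2.52% of all genes), in either direction 11.6% against 4.19%. The median log2 fold change of the 43 genes was -0.11, against 0.007 over all genes, and 28 were negative (65.1%, against 48.4% of all genes). With scaling by library size alone 23 were negative and the median was -0.03, where that of all genes was 0.086.

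Gsta2, an alpha-class gene known to respond to NRF2, had 13.1, 9.2 and 13.3 CPM in heterozygous and 24.8, 21 and 28.5 CPM in wild-type males. The groups did not overlap (-1.07, SE 0.26, adjusted p = 0.972). Sult1a1 had 196, 201 and 208 CPM in heterozygous and 227, 320 and 368 CPM in wild-type males, a narrow band below all wild-type values (-0.60, SE 0.19, adjusted p = 0.972). Gstt3, of the theta class, had 52.4, 48 and 63.4 CPM in heterozygous and 75.9, 65.1 and 116 CPM in wild-type males, without overlap (-0.65, SE 0.22, adjusted p = 0.972). Ugt1a9 had 58.6, 77.3 and 115 CPM in heterozygous and 136, 99.2 and 175 CPM in wild-type males, overlapping through heterozygous male 3 (-0.72, SE 0.28, adjusted p = 0.972). Higher values were seen for Gstp3, with 25.6, 21.9 and 16.5 CPM in heterozygous and 12.3, 9.44 and 16.3 CPM in wild-type males (0.74, SE 0.23, adjusted p = 0.972). Lower values without overlap occurred in 6 members (14%, against 4.92% of all genes) and higher ones in 1 (2.33%, against 4.98%). Without heterozygous male 2 the members at an unadjusted p under 0.05 numbered 3, and without wild-type male 3 they numbered 2, against 5. The count over all genes fell too, to 361 of 12569 and 259 of 12603, against 521 of 12427. Without wild-type male 1 there were 2 higher and 4 lower members, and 1287 of 12575 genes.

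Gstp1 differed among the heterozygotes, with 3661, 3608 and 951 CPM, and Gstp2 had 15.5, 14.2 and 5.25 CPM in the same animals.

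The comparison of homozygous with heterozygous males concerns the remaining wild-type allele. At an unadjusted p under 0.05 there were 6 higher members (14%, against 8.25% of all genes) and 7 lower members (16.3%, against 8.92% of all genes), in either direction 30.2% against 17.2%. After adjustment edgeR called 0 members and limma-voom 0 (0% of all genes each), and DESeq2 called 9 (20.9%, against 4.39% of all genes). The 9 were Sult1a1, Sult1d1, Gsta2, Gstt3 and Ugt1a9 with higher and Ugt2b38, Gstp2, Gstp3 and Sult1c2 with lower values in homozygotes. The median over the 43 genes was -0.15 with 28 of them negative (65.1%, against 49.6% of all genes), and over 44 genes without homozygous male 1 it was -0.05. The libraries are those of the other male comparisons, so the values repeat theirs in part.

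Sult1a1 had 460, 312 and 426 CPM in homozygous males, against 196, 201 and 208 CPM in heterozygous males (0.99, SE 0.19, adjusted p = 0.104). Sult1d1 had 446, 130 and 259 CPM in homozygous males, against 88, 97.8 and 90.4 CPM in heterozygous males (1.59, SE 0.37, adjusted p = 0.116). For both, every homozygous animal lay above every heterozygous one. Sult1d1 lies on chromosome 5 at 87554650 to 87569006, between Sult1b1 at 87513327 to 87538195 and Sult1e1 at 87575968 to 87591611. Its neighbour Sult1b1, known to act on thyroid hormones, had 9, 20.9 and 16.3 CPM in homozygous and 29.4, 20 and 26.8 CPM in heterozygous males, with an overlap (-0.71, SE 0.30, adjusted p = 0.268). Sult2a8 had 120, 531 and 529 CPM in homozygous and 1070, 981 and 880 CPM in heterozygous males, without overlap (-1.30, SE 0.48, adjusted p = 0.224). Sult1c2 had 1.74, 3.95 and 2.76 CPM in homozygous and 6.98, 5.43 and 8.26 CPM in heterozygous males, without overlap (-1.28, SE 0.39, adjusted p = 0.163).

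Gstp3 had 8.13, 11.2 and 8.99 CPM in homozygous and 25.6, 21.9 and 16.5 CPM in heterozygous males, without overlap (-1.17, SE 0.23, adjusted p = 0.104). Gstp1 (-1.32, SE 0.48, adjusted p = 0.216) and Gstp2 (-1.26, SE 0.38, adjusted p = 0.161) had lower values that overlapped through heterozygous male 3. Gsta2 (0.91, SE 0.26, adjusted p = 0.144), Gstt3 (0.79, SE 0.22, adjusted p = 0.144) and Gsto1 (0.42, SE 0.14, adjusted p = 0.197), an omega-class gene, had higher values without overlap. Ugt1a9 had 174, 124 and 182 CPM in homozygous and 58.6, 77.3 and 115 CPM in heterozygous males, without overlap (0.93, SE 0.28, adjusted p = 0.165). Ugt2b38 had 0.348, 1.4 and 1.2 CPM in homozygous and 16.6, 7.2 and 23.1 CPM in heterozygous males, without overlap (-3.98, SE 0.99, adjusted p = 0.122). Higher values without overlap occurred in 8 members (18.6%, against 10.6% of all genes) and lower ones in 6 (14%, against 11.7%).

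**Figure D4:**
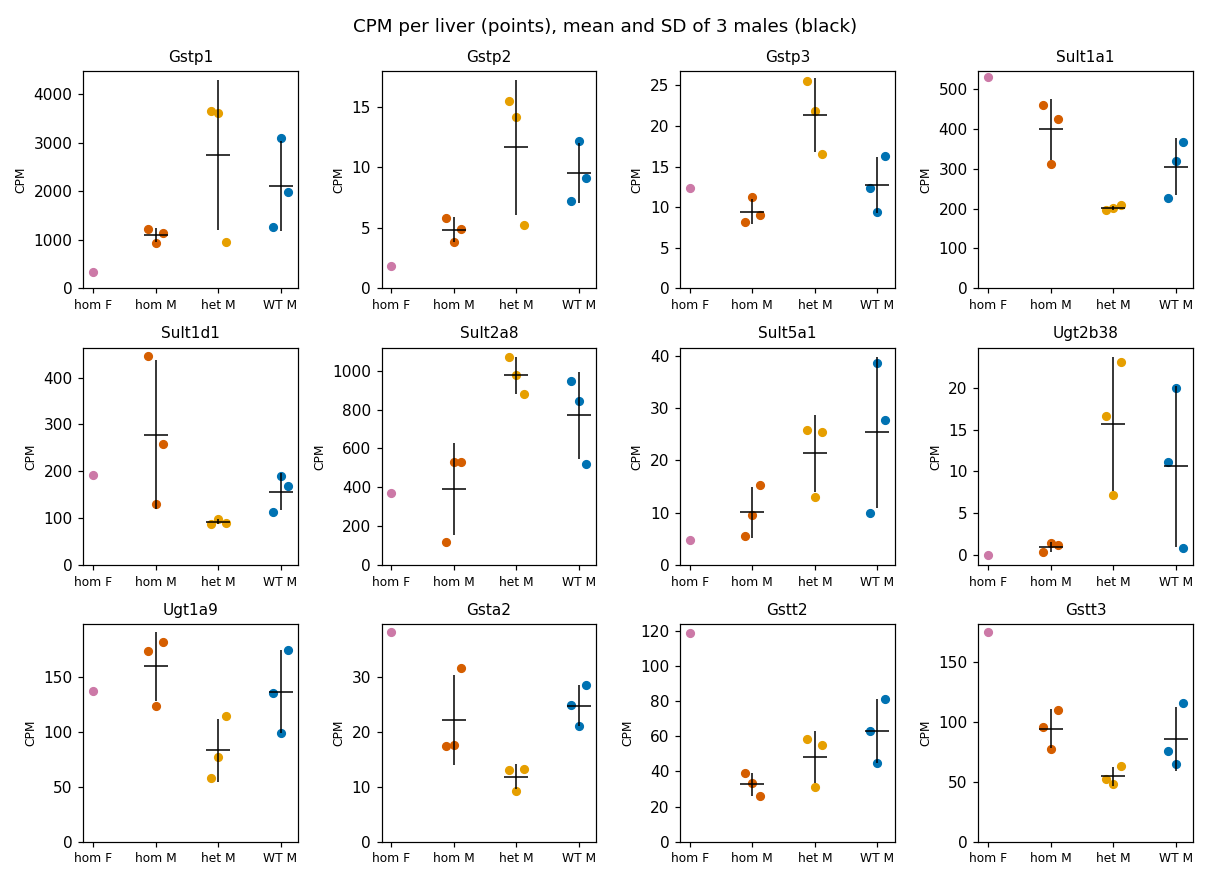
Points are CPM of 12 conjugation genes in each liver, with the homozygous female, homozygous males, heterozygous males and wild-type males from left to right. Black marks give the mean and SD of 3 males. Sult1a1 and Sult1d1 lie in narrow bands in heterozygotes (196 to 208 and 88 to 97.8 CPM), and Gstp1 of the female (338 CPM) lies below all males.

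The homozygous female was set against the 3 homozygous males, the same genotype in the other sex. Several genes of the Sult2a group, whose enzymes sulfate steroids and bile acids, had many reads in the female and few in the males. Sult2a1 had 1123 reads in the female and 0, 0 and 1 reads in homozygous males, a ratio of 3258 on the TMM-scaled totals (95% interval 584 to 128792, counting error only). Sult2a2 had 638 reads in the female and 1, 0 and 0 reads in homozygous males, a ratio of 1851 (331 to 73218). Sult2a7 had 23.7 CPM in the female and 0.639, 1.63 and 1.86 CPM in homozygous males. By edgeR, Sult2a7 rose in the female (log2 fold change 4.10, SE 0.56, adjusted p = 0.0498), a call that was lost when any single homozygous male was left out. The fit assumes that the lone female varies as the males do.

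With the female in the fit edgeR called 3 of 49 members (0.0772% of all 12954 genes), namely Sult2a1, Sult2a2 and Sult2a7, DESeq2 5 (0.764%) and limma-voom 5 (0.116%). Sult2a1 and Sult2a2, like Sult1e1, Sult2a5, Sult2a6 and Sult3a1, were tested only when the female was included, so these counts are not read as a result. Among the 43 members also tested in the males, edgeR called 1 (2.33%, against 0.0563% of the 12427 such genes). At an unadjusted p under 0.05 there were 7 higher members (16.3%, against 5.09%) and 2 lower ones (4.65%, against 5.29%), in either direction 20.9% against 10.4%. The female lay above all homozygous males in 17 members (39.5%, against 27.2%) and below them in 6 (14%, against 27.4%), and 15 fold changes were negative (34.9%, against 51.8%). The median log2 fold change was 0.41 over 7 SULT, 0.37 over 20 GST and -0.09 over 16 UGT genes. Without homozygous male 1 it was 0.13 over the GST and -0.17 over the UGT genes.

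Sult2a5 had 122 reads and Sult2a6 16 reads in the female and 0 in the homozygous males, so they were at least 118-fold and 15.5-fold higher, with 3 reads over the 3 libraries as the limit that a count of 0 allows. Sult2a3 had 3 reads and Sult3a2 7 reads in the female. Sult2a8 of the same cluster had 371 CPM in the female and 120, 531 and 529 CPM in homozygous males. The female lay inside their range only through homozygous male 1, and below the other homozygous males.

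The start regions of Sult2a5 and Sult2a8 are shown because the one gene had 0 reads in all 9 males and the other was the most abundant SULT gene of wild-type males. They lie at chr7:13623717-13624016 on the plus strand and, for 1 of 2 annotated starts, chr7:14446538-14446837 on the minus strand of GRCm38.p6 (RefSeq). They are identical at 175 of 300 aligned bases (58.3%). Neither held any of the motifs above, so no letters are in capitals.
Sult2a5: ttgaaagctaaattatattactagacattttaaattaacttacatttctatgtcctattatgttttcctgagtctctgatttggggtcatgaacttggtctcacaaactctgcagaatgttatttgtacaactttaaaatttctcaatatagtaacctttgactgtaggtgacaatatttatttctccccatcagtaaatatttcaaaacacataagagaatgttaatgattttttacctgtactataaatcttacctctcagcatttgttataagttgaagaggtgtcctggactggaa
Sult2a8: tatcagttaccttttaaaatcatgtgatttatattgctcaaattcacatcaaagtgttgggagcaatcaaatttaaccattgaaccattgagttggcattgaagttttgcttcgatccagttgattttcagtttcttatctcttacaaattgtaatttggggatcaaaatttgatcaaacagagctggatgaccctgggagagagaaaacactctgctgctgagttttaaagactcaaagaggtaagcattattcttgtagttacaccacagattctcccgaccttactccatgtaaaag

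Other members differed between the female and the homozygous males without passing after adjustment in the main fit by edgeR. Gstt2 and Sult3a1 did pass under an alternative. Sult3a1 was tested only because the female was included, so that call is not read as a result. Sult3a1, an amine sulfotransferase gene, had 406 reads in the female and 0, 15 and 18 reads in homozygous males. Gstt2 had 119 CPM in the female and 39, 33.4 and 25.8 CPM in homozygous males (1.86, SE 0.36, adjusted p = 0.227). Gstt3 had 175 CPM in the female and 95.6, 77.4 and 110 CPM in homozygous males (0.89, SE 0.30, adjusted p = 0.382). The bilirubin gene Ugt1a1 had 1053 CPM in the female and 674, 699 and 724 CPM in homozygous males (0.59, SE 0.20, adjusted p = 0.377). Sult1b1, Sult1c2 and Gsta2 also had higher values, with log2 fold changes of 0.93, 1.39 and 0.78. On the lower side, Gstp1 had 338 CPM in the female and 1213, 935 and 1129 CPM in homozygous males (-1.69, SE 0.74, adjusted p = 0.474). Ugt2b5 had 528 CPM in the female and 776, 717 and 751 CPM in homozygous males (-0.50, SE 0.18, adjusted p = 0.386). Ugt2b38 had 0 reads in the female, for an upper limit of 0.17 CPM, and 6, 24 and 20 reads in homozygous males. Females of the other genotypes were not analysed here.

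**Figure D5:**
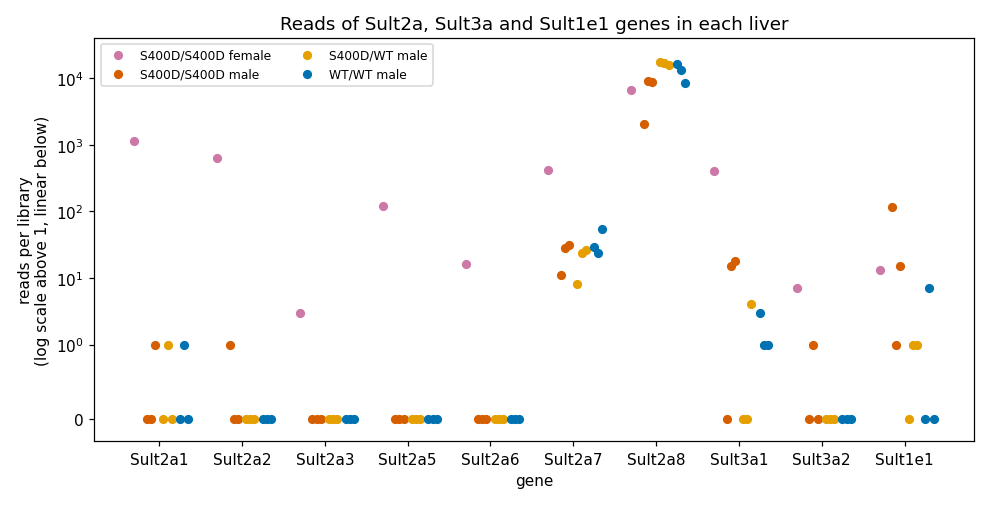
Points are reads per library of 10 SULT genes, on an axis that is logarithmic above 1 read and linear below, with the groups from the homozygous female to the wild-type males. Sult2a1 (1123 reads) and Sult2a2 (638 reads) are high in the female and at 0 or 1 read in all 9 males, and Sult1e1 is highest in homozygous male 1 (117 reads).

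The genes that supply or regulate conjugation were listed as 59 genes, of which 55 were tested. Between homozygous and wild-type males edgeR called 0, and 3 higher genes (5.45%, against 6.82% of all genes) and 7 lower ones (12.7%, against 8.08%) stood at an unadjusted p under 0.05. The CAR gene Nr1i3 had 208, 195 and 252 CPM in homozygous and 149, 98.5 and 159 CPM in wild-type males (0.68, SE 0.19, adjusted p = 0.209). Cyp2b10, a target of CAR, had 18.9, 3.49 and 2.94 CPM in homozygous and 1.16, 0.323 and 1.41 CPM in wild-type males (3.09, SE 0.83, adjusted p = 0.207). For both, all homozygous animals lay above all wild-type ones. Papss2, which makes the sulfate donor PAPS, had 65.9, 150 and 111 CPM in homozygous and 173, 187 and 210 CPM in wild-type males, without overlap (-0.80, SE 0.27, adjusted p = 0.257). The microsomal glutathione transferase gene Mgst1 had 1317, 2097 and 2161 CPM in homozygous and 2956, 2640 and 2578 CPM in wild-type males, without overlap (-0.55, SE 0.21, adjusted p = 0.284).

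In heterozygous against wild-type males edgeR called 0 listed genes, and 0 higher (0%, against 1.67% of all genes) and 2 lower ones (3.64%, against 2.52%) stood at an unadjusted p under 0.05. Chac1, whose enzyme degrades glutathione, had 1.25, 1.77 and 3.18 CPM in heterozygous and 4.69, 5.11 and 3.32 CPM in wild-type males (-1.07, SE 0.37, adjusted p = 0.972). The other was the nuclear receptor gene Nr5a2 (-0.35, SE 0.12, adjusted p = 0.972). In homozygous against heterozygous males 8 stood higher (14.5%, against 8.25% of all genes) and 5 lower (9.09%, against 8.92%), with 0 called, among them Chac1 (1.84, SE 0.36, adjusted p = 0.104) and Cyp2b10 (4.33, SE 0.92, adjusted p = 0.109). Between the female and homozygous males 6 stood higher (10.9%, against 5.09% of genes tested in the males) and 5 lower (9.09%, against 5.29%), with 0 called. Ugdh, which makes UDP-glucuronic acid, had 90.8 CPM in the female and 143, 149 and 179 CPM in homozygous males (-0.79, SE 0.16, adjusted p = 0.275). Nqo1 had 10.8 CPM in the female and 4.76, 4.94 and 5.57 CPM in homozygous males (1.09, SE 0.26). Nr1i3 had 402 CPM in the female and 208, 195 and 252 CPM in homozygous males (0.88, SE 0.26). Papss2 had 222 CPM in the female and 65.9, 150 and 111 CPM in homozygous males (1.02, SE 0.36). Lower in the female was Gclm, with 102 CPM against 136, 150 and 153 CPM (-0.52, SE 0.17). Gsr was lower too, with 50.9 CPM against 69.7, 61.6 and 68.3 CPM (-0.38, SE 0.14).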

How the data were processed

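The authors deposited expected counts, FPKM and TPM for 77712 transcripts in each of 10 liver libraries, per the file headers. The expected counts are estimated reads per transcript as deposited by the authors, without normalisation. FPKM, as deposited, are scaled by the authors to transcript length and library total, and TPM, as deposited, to a fixed sum per library and were not used. HISAT, Bowtie2 and the build GRCm38.p6 are named in the submitters' processing notes. For the counting program and its strand setting, nothing is given in the sources used here. In the table, 9 columns were matched to no sample and not used.

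Transcripts were summed to 19271 genes, of which 19214 matched RefSeq names, and rounded to whole numbers (94.5% of nonzero sums lay within 0.05 of one). Gstp1, Gstp2 and Gstp3 have 4 transcripts listed again at another position with identical values. For Gstp1 and Gstp2 these hold shares of the reads, since both genes together gave whole sums in 10 of 10 libraries and odd sums in 6, and repeated reads would give even sums. For Gstp3 the sums were whole in 10 libraries but odd in 1 only, so this is less clear there. All copies were added. The members and lists were chosen with earlier results of these data known. The 9 males were fitted together in edgeR 4.0.16 (R 4.3.3, TMM scaling, filter on low counts, quasi-likelihood test), and the female in a fit of all 10 libraries, with Benjamini-Hochberg adjustment over all genes. The filter kept 43 members in males and 49 with the female. CPM, ratios and limits use library totals scaled by TMM. Named were Htra2, members past the threshold, up to 10 members per direction and comparison at an unadjusted p under 0.05, the 4 most abundant of each family and up to 6 listed pathway genes per comparison. Genes named for homozygous male 1 or for lack of overlap, and Arntl, were chosen after their values were seen. Alternatives were DESeq2 1.42.0, limma-voom (limma 3.58.1), other scalings and filters, a replicate block, other samples in the fit, limma applied to log2(FPKM + 1) and to log2(FPKM + 0.1), and leaving out each animal. The test was tried on simulated data. Intervals and limits of a count of 0 cover counting error only. Words of 50 bases were compared among GENCODE transcripts.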

Additional observations from a re-analysis of the deposited data

How the results depend on the processing

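Each male group held 3 animals and the female stood alone, and reads shared between close copies limit the Gstp1, Gstp2, Ugt1a and Sult2a values. In homozygous against wild-type males DESeq2 called 2 members, against 0, and put 10 at an unadjusted p under 0.05, against 6. Over all 12427 genes it called 308, against 0, and put 1863 there, against 1852. Leaving out an animal gave 0 called members each time and 5 to 10 at an unadjusted p under 0.05, with 10 without homozygous male 2. Over all genes these fits put 1121 to 2198 there, with 2131 of 12559 without homozygous male 2. In heterozygous against wild-type males leaving out an animal gave 2 to 7, against 5, and over all genes 259 to 1287, against 521. In homozygous against heterozygous males DESeq2 called 9 members, against 0, and leaving out an animal gave 12 to 16 at an unadjusted p under 0.05, against 13. Over all genes DESeq2 called 545, against 0, and leaving out an animal gave 1511 to 2628, against 2134. The cause was not tested. For the female, DESeq2 and limma-voom called 5 members each, against 3. The filter of at least 1 CPM in 3 samples removes Sult2a1 and Sult2a2, which had reads in too few libraries. The filter of both limma fits on FPKM, at least 1 FPKM in 3 samples, removes them too. These filters left 7 and 8 SULT genes tested, against 13, so calls there cannot be set beside those of the main fit. With each homozygous male left out in turn, the log2 fold change was 10.74 to 13.07 for Sult2a1 and 3.75 to 4.38 for Sult2a7. Sult2a1 was tested only because the female was included, so its range is not read as a result. The replicate numbers did not pair the animals (correlations of same-numbered animals -0.419 to 0.182), and a fit with the replicate block gave 5 members in homozygous against wild-type, 6 in heterozygous against wild-type and 13 in homozygous against heterozygous males at an unadjusted p under 0.05, with 0 called. Over all 12427 genes that fit put 1591, 416 and 1849 there. Of the fold changes of the named members under the alternatives, 514 kept their direction and side of the threshold, 16 passed it newly, 9 lost it and 0 changed direction. These members were chosen for a low p in the main fit of the same animals, so a kept direction is no independent check. Over all tested members in homozygous against wild-type males, 35 of 43 were negative, and 25 of 44 without homozygous male 1. With the most abundant transcript in place of the sum, 41 members had at least 1 FPKM in wild-type males, and Gstp1 had 2135 FPKM, against 4271 FPKM with its copy added.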
